A study of Mus musculus with 6 samples.

Results

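The 9 receptor genes described here are the 4 of the ErbB family (Egfr, Erbb2, Erbb3 and Erbb4) and the 5 of the FGF receptor family (Fgfr1, Fgfr2, Fgfr3, Fgfr4 and Fgfrl1), out of 22180 genes tested. They were listed by name because the cultures were grown on EGF and FGF2, and each was read by the 1 probe set that the platform annotation gives to that gene alone. Expression was measured on 6 Affymetrix Mouse Gene 2.0 ST arrays, in neurospheres from the subventricular zone of 2-month-old offspring of CD1 mice, an outbred stock. In the MG group (3 cultures) the mothers had been injected intraperitoneally 2 times a day with MG at 0.5 mg/kg, from gestational day 12 until birth. In the PBS group (3 cultures) they had been injected with PBS on the same schedule. How many offspring each culture came from is not given here. MG is read as methylglyoxal, a reactive by-product of glycolysis, from the title of the series. Neurospheres are floating colonies of neural stem and progenitor cells together with the cells these give rise to.

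All 6 cultures shared the same medium. It was serum-free and contained EGF at 20 ng/ml, FGF2 at 10 ng/ml, B27 supplement at 2% and heparin at 2 µg/ml, and cells were plated at 2 cells per µl and grown for 7 days. The receptors were therefore read in cells already growing in the presence of EGF and FGF2, and no culture without growth factors was compared here. The labels call the cultures primary in the titles and secondary in the descriptions. They give neither the sex of the offspring nor whether littermates were used, and offspring of 1 mother are not independent. A difference between litters cannot be told apart from the injections.

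ErbB receptors are tyrosine kinases that pair up when a ligand of the EGF or neuregulin family binds. EGFR binds EGF, ERBB3 and ERBB4 bind neuregulins, and ERBB2 binds no known ligand and serves as a partner for the others. FGFR1 to FGFR4 are tyrosine kinases that bind FGFs together with heparan sulphate or heparin, while FGFRL1 binds FGFs but lacks the kinase domain. In the adult subventricular zone EGFR marks stem cells that have become active and their dividing progeny, FGFR3 is enriched in astrocytes and radial glia, and ERBB4 is found on migrating neuroblasts and some glial cells.

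The receptor promoters are shown for Egfr, the receptor with the brightest probe set, and for Erbb4 and Fgfr3, whose values were low together on the same arrays (described further on). The sequences are the 250 bases before the RefSeq start of each gene in GRCm38.p6, with GC boxes (GGGCGG or, on the other strand, CCGCCC) in capitals. Fgfr3 has a further listed start, which is not shown.
Egfr, chr11:16751953-16752202, plus strand: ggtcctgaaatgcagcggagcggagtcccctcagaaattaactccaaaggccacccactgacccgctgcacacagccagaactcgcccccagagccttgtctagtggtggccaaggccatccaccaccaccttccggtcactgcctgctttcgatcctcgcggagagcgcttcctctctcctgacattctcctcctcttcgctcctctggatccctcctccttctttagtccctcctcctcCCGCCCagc
Erbb4, chr1:69108060-69108309, minus strand: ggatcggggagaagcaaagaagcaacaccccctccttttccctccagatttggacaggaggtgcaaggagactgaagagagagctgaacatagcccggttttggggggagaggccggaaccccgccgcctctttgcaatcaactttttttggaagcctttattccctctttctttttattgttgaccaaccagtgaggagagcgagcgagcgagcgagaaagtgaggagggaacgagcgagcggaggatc
Fgfr3, chr5:33721474-33721723, plus strand: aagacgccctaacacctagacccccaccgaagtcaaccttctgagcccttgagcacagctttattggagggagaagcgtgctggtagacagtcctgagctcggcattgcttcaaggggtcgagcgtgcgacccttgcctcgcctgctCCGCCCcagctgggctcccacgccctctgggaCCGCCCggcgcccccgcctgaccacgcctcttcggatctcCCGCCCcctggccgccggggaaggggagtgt
The Egfr window held 1 GC box and the Fgfr3 window 3, while the letters were not found in the Erbb4 window. GC boxes occurred in 32.7% of the 32851 promoter windows of the same length. The letters TATAAA, searched on both strands, occurred in none of the 8 windows listed for 7 of the receptors, and in 12.4% of all windows. GC content was 60.8% for Egfr, 54.0% for Erbb4 and 66.8% for Fgfr3, against a median of 52.4% over all windows. The promoter of human EGFR is known as GC-rich and without a TATA box. A match is a description of these letters, not a binding site.

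Egfr stood out among the receptors for a bright signal that varied little. Its log2 values were 11.78, 11.76 and 11.99 in MG, against 11.93, 11.81 and 11.84 in PBS. The groups overlapped, and all 6 arrays lay within 0.23 of each other on the log2 scale. Only 10.9% of the genes above the reference level had a smaller range. The reference level, 5.02 on the log2 scale, is where the mean signals of 1394 olfactory and vomeronasal receptor genes reach their 95th percentile, these being genes used mainly by sensory neurons of the nose. The mean signal of Egfr was higher than that of 99.5% of the genes tested. Probe sets differ in how brightly they read the same amount of RNA, so this and the other percentiles place signals and not transcript numbers.

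**Figure D1:**
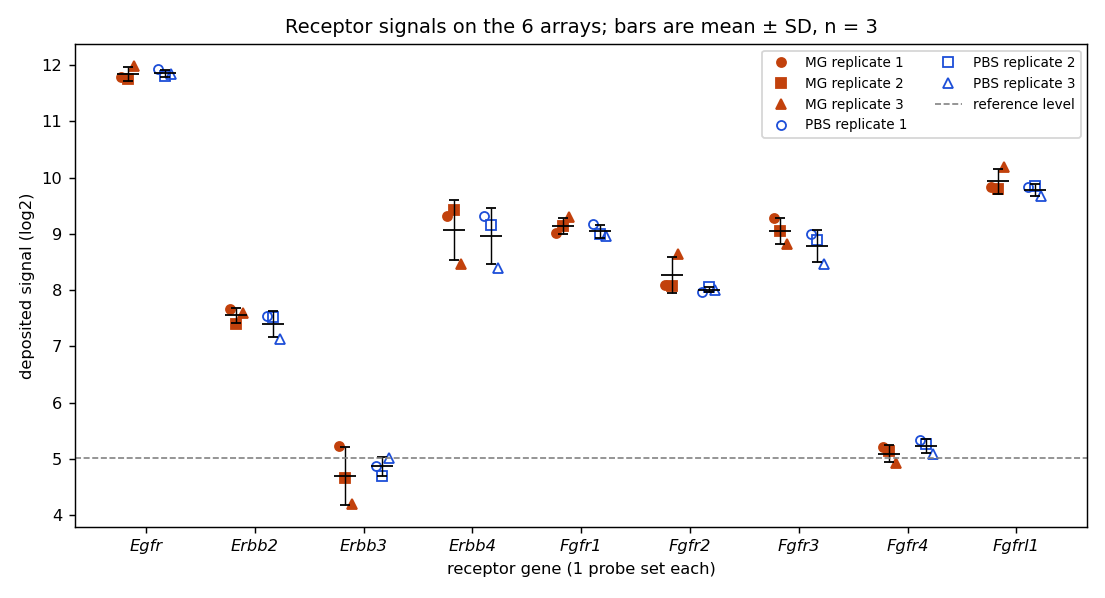
Deposited log2 signal (vertical axis) of the 9 receptor genes on the 6 arrays. Filled symbols are MG and open symbols PBS, the symbol shape gives the replicate number, black bars are mean ± SD (n = 3), and the dashed line is the reference level of 5.02. Egfr is the brightest on every array, Erbb3 and Fgfr4 lie near the reference level, and the groups overlap for every receptor but Fgfr2.

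The order of the receptor signals was nearly the same in the 6 cultures. Egfr came first and Fgfrl1 the second on every array, Erbb2 was always the seventh, and Erbb3 and Fgfr4 always took the last 2 places. Between them lay Erbb4, Fgfr1, Fgfr3 and Fgfr2, and all of these changed place on at least 1 array. Erbb4 moved furthest, being the third on 4 arrays but the sixth in MG replicate 3 and the fifth in PBS replicate 3.

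No receptor differed between MG and PBS by the test across all genes. With limma, 0 of the 9 passed a Benjamini-Hochberg adjusted p under 0.05, as did 0 of all 22180 genes (0.0%), and the adjusted p was 0.9998 for all 9. At an unadjusted p under 0.05 there were 0 of the 9 receptors and 712 of all genes (3.21%), and an ordinary linear model without moderation also called 0 genes after adjustment. Of the receptors, 6 had higher and 3 lower means in MG, with a median log2 difference of 0.11, whereas 53.8% of all genes had higher means and their median log2 difference was 0.01. The groups did not overlap for 1 receptor, Fgfr2, and for 7.34% of all genes (4.03% with MG higher and 3.31% with MG lower). An exact permutation test of 3 against 3 cannot give a p under 0.1.

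**Figure D2:**
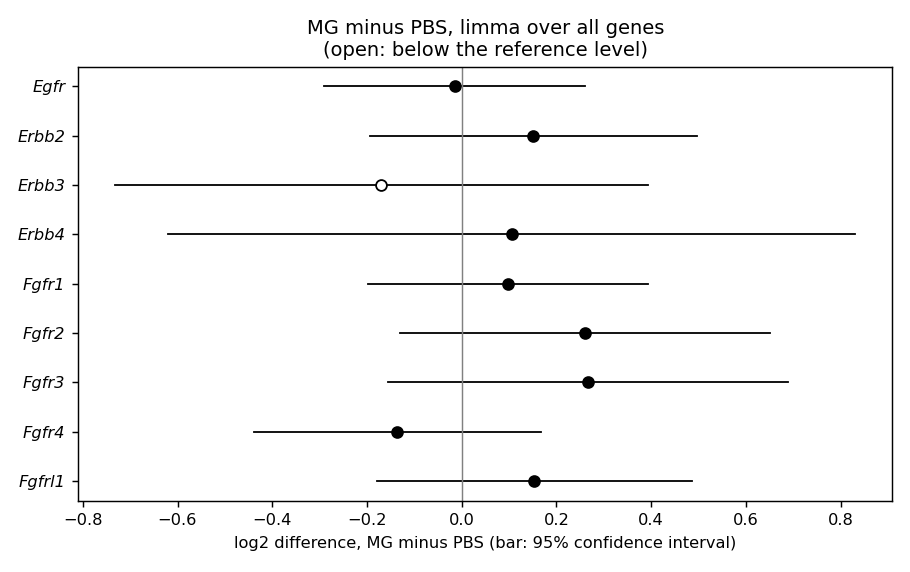
Log2 difference, MG minus PBS (horizontal axis), of each receptor gene with its 95% confidence interval from limma. The open symbol marks Erbb3, which was below the reference level in both groups, and every interval includes 0.

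Among the ErbB receptors, Egfr had the narrowest interval. Its mean was 11.84 ± 0.13 in MG and 11.86 ± 0.06 in PBS (SD, n = 3 each). The log2 difference was -0.02 (limma SE 0.12), with a 95% confidence interval from -0.29 to 0.26, which is 0.818 to 1.198 times the PBS level.

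Erbb2, the partner receptor without a ligand of its own, had log2 values of 7.66, 7.40 and 7.59 in MG, against 7.54, 7.52 and 7.14 in PBS. The lowest value was that of PBS replicate 3, and the other 5 arrays lay close together, so the groups overlapped. The log2 difference was 0.15 (SE 0.15, interval -0.19 to 0.50), and it was 0.02 without PBS replicate 3.

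Erbb4, a neuregulin receptor, varied between arrays more than most genes. Its log2 values were 9.32, 9.42 and 8.46 in MG, against 9.32, 9.17 and 8.39 in PBS. In each group replicate 3 was low and the other 2 were alike, so that the spread within groups, an SD of 0.51, was larger than that of 96.9% of genes above the reference level. The log2 difference between the groups was 0.11 (SE 0.31), with an interval from -0.62 to 0.83. That interval spans 0.651 to 1.78 times the PBS level, the widest of the 8 receptors above the reference level. The sign of the difference turned without MG replicate 1 (-0.02), MG replicate 2 (-0.07) or PBS replicate 3 (-0.18), and without MG replicate 3 the difference was 0.41.

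Erbb3, which binds neuregulins and has a weak kinase of its own, was near or under the reference level. Its log2 values were 5.22, 4.66 and 4.197 in MG, against 4.88, 4.69 and 5.02 in PBS. Only 2 arrays, MG replicate 1 and PBS replicate 3, were above the reference level. No fold is given, since both group means, 4.69 ± 0.51 in MG and 4.86 ± 0.17 in PBS (SD, n = 3 each), were below that level. The log2 difference of -0.17 had the second-largest SE of the receptors, 0.24. It was -0.43 without MG replicate 1 and turned to 0.08 without MG replicate 3.

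Of the FGF receptors, Fgfr1 is the main one through which FGF2 acts on neural stem cells. Its log2 values were 9.01, 9.13 and 9.29 in MG, against 9.18, 8.999 and 8.97 in PBS. The groups overlapped, and the 6 arrays lay within 0.33 of each other. The log2 difference was 0.10 (SE 0.13), with an interval of 0.872 to 1.31 times the PBS level, and it was 0.02 without MG replicate 3.

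Fgfr2 was the receptor without overlap, and 1 culture made most of its difference. Its log2 values were 8.09, 8.08 and 8.64 in MG, against 7.97, 8.06 and 7.9997 in PBS. MG replicate 3 stood well above the others, while the other 2 MG values exceeded the highest PBS value only narrowly. The mean was 8.27 ± 0.32 in MG and 8.01 ± 0.05 in PBS (SD, n = 3 each), and the log2 difference was 0.26 (SE 0.17, interval -0.13 to 0.65). The unadjusted p was 0.162 in limma and 0.1 in the exact two-sided permutation test, the smallest that 3 against 3 allows. Without MG replicate 3 the log2 difference was 0.07.

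Fgfr3, the receptor enriched in astrocytes and radial glia, had the largest difference between the means, also short of the test. Its log2 values were 9.28, 9.06 and 8.82 in MG, against 9.002, 8.90 and 8.46 in PBS. MG replicate 3 lay below 2 of the PBS arrays, and PBS replicate 3 was the lowest of all. The log2 difference was 0.27 (SE 0.18), with an interval from -0.16 to 0.69 and an unadjusted p of 0.183 in limma. Leaving out PBS replicate 3 gave 0.10, leaving out MG replicate 1 gave 0.15, and leaving out MG replicate 3 gave 0.38. Of 13 astrocyte markers, 12 had higher means in MG, against 53.8% of all genes. Their median log2 difference was 0.13, and 0 had an unadjusted p under 0.05 in limma. By count of signs, such a tilt was not particular to astrocyte markers. Of 18 DNA replication genes, 15 also had higher means in MG, though with a smaller median log2 difference of 0.05. The part of astrocytes in the Fgfr3 difference was not tested.

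Fgfrl1, the family member without a kinase, had log2 values of 9.83, 9.80 and 10.19 in MG, against 9.84, 9.85 and 9.66 in PBS. As with Fgfr2, MG replicate 3 was the highest array. The other 2 MG values lay just under those of PBS replicates 1 and 2. The log2 difference was 0.15 (SE 0.14, interval -0.18 to 0.49) and was 0.03 without MG replicate 3.

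Fgfr4 was close to the reference level, with log2 values of 5.21, 5.14 and 4.93 in MG, against 5.33, 5.27 and 5.09 in PBS. Replicate 3 was again the lowest of each group, and the groups overlapped. The log2 difference was -0.14 (SE 0.13, interval -0.44 to 0.17), and MG replicate 3 was below the reference level. Leaving out MG replicate 3 gave -0.05 and leaving out PBS replicate 3 gave -0.21.

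**Figure D3:**
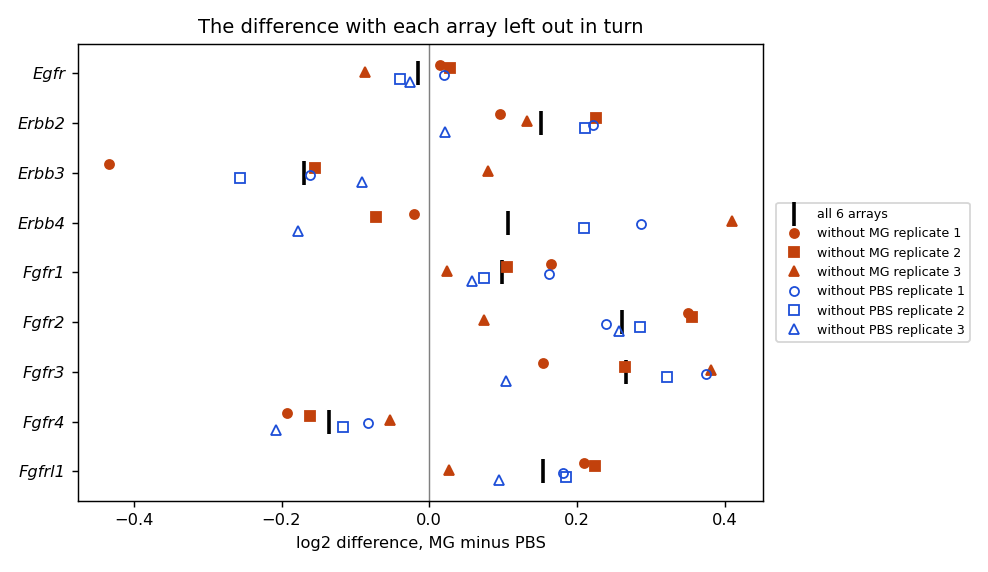
Log2 difference, MG minus PBS (horizontal axis), of each receptor gene with all 6 arrays (black bar) and with 1 array left out. Filled symbols leave out an MG array and open symbols a PBS array. Fgfr2 moves to 0.07 without MG replicate 3, and the points of Egfr, Erbb3 and Erbb4 fall on both sides of 0.

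The arrays numbered 3 differed from their group mates in several receptors, in the same way in both groups for some and in opposite ways for others. For Erbb4, replicate 3 lay under the mean of replicates 1 and 2 by a log2 difference of -0.91 in MG and -0.85 in PBS. Fgfr3 was likewise lower there, by -0.34 in MG and -0.49 in PBS, as was Fgfr4, by -0.25 in MG and -0.21 in PBS. Fgfr2 was higher by 0.56 in MG replicate 3, but differed by -0.01 in PBS replicate 3. Fgfrl1 showed 0.38 in MG and -0.18 in PBS, Fgfr1 0.22 in MG and -0.12 in PBS, and Egfr 0.22 in MG and -0.03 in PBS. Erbb2 showed 0.06 in MG and -0.39 in PBS, and Erbb3, near the reference level, -0.75 in MG and 0.23 in PBS. These are descriptions of 1 culture per group, with no test.

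**Figure D4:**
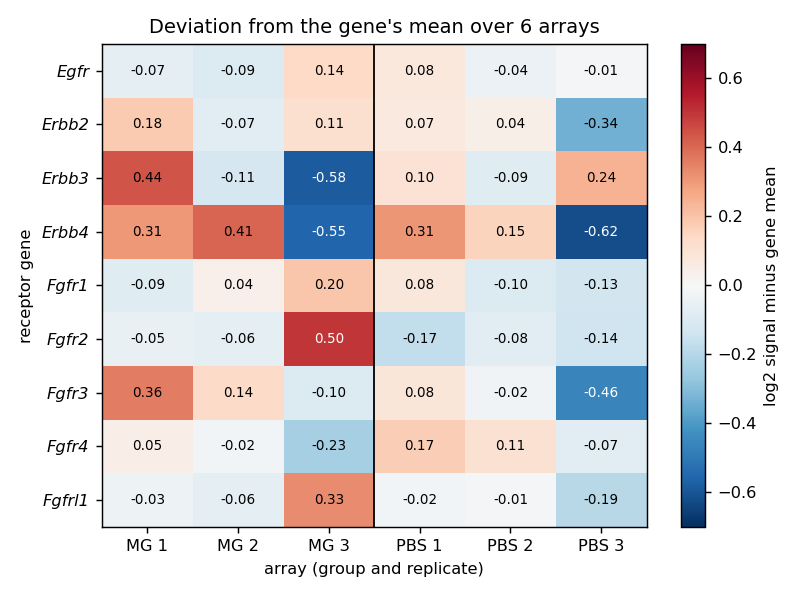
Log2 signal of each receptor gene (rows) on each array (columns, MG left of PBS) minus that gene's mean over the 6 arrays, with the values printed in the cells. Erbb4 is at -0.55 in MG replicate 3 and -0.62 in PBS replicate 3, while Fgfr2 is at 0.50 in MG replicate 3 and -0.14 in PBS replicate 3.

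Some marker lists also stood apart on the arrays numbered 3, and others did not. The mean of the 12 astrocyte markers above the reference level, relative to the 6 arrays, was 0.33, 0.26 and -0.39 in MG replicates 1, 2 and 3, and 0.02, 0.21 and -0.43 in PBS. Not every astrocyte marker followed this mean. Gfap was lower in MG replicate 3, at 5.56 against 7.16 and 6.74 in MG replicates 1 and 2. In PBS replicate 3 it was at 6.39, between the 5.95 and 6.73 of PBS replicates 1 and 2. Of 13 astrocyte markers tested, Gjb6 was below the reference level on every array, and the mean level of the 13 ran from 8.32 to 8.94 in MG and from 8.27 to 8.88 in PBS. The mean of 18 DNA replication genes ran the other way, at -0.14, -0.26 and 0.50 in MG and -0.43, -0.13 and 0.46 in PBS. Oligodendrocyte lineage markers, 11 of 13 above the reference level, were at 0.33, 0.06 and -0.30 in MG, and -0.02, 0.14 and -0.22 in PBS. The 13 stem cell and radial glia markers were at -0.04, 0.04 and 0.09 in MG, and -0.09, 0.00 and 0.00 in PBS. The 4 microglia and macrophage markers above the reference level were at -0.18, 0.05 and 0.10 in MG, and 0.03, -0.19 and 0.20 in PBS. The mean of the 4 endothelial markers above it was also lower in replicate 3. It was 0.05, 0.19 and -0.17 in MG and 0.16, 0.19 and -0.42 in PBS. Cdh5 did not follow it in MG, where replicate 3 was the highest, at 5.16 against 5.03 and 4.89. The mean of 7 pericyte and fibroblast markers was lower there too, at 0.13, 0.13 and -0.05 in MG and -0.03, 0.08 and -0.26 in PBS. Among these, Rgs5 was highest in replicate 3 of both groups. The mean of the 9 activated stem and transit amplifying cell markers was higher in replicate 3, at -0.13, -0.04 and 0.15 in MG and -0.12, -0.03 and 0.16 in PBS. Ccnd1 and Ccnd2 did not follow it and were lowest in replicate 3 of both groups. Mcm2 and Pcna are in this list and also among the DNA replication genes. The part of these markers in the receptor values was not tested. In such bulk cultures fewer cells of a type and less RNA per cell cannot be told apart.

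**Figure D5:**
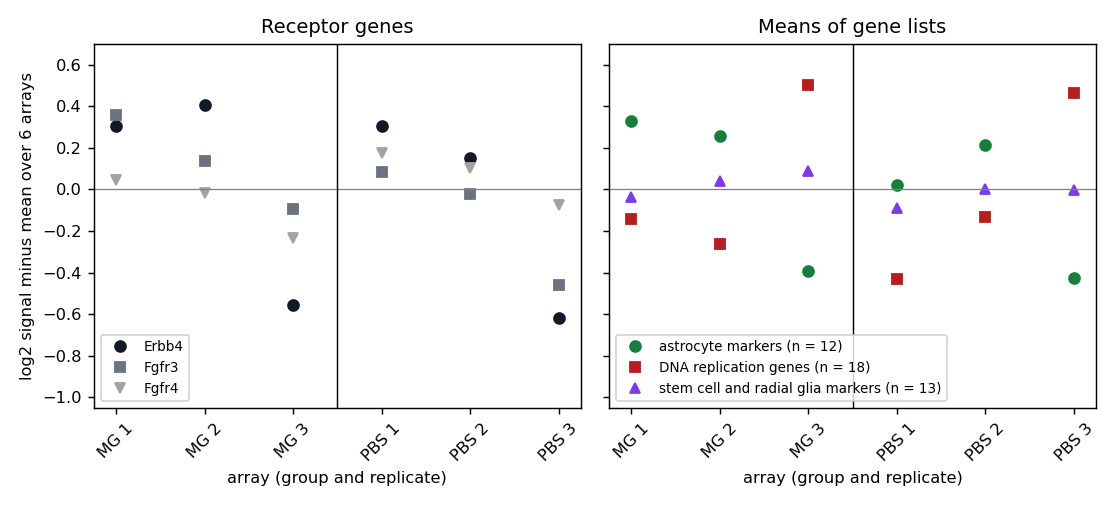
Left, log2 signal of Erbb4, Fgfr3 and Fgfr4 on each array minus the gene's mean over the 6 arrays. Right, the same for the means of 3 marker lists (n genes each above the reference level). The 3 receptors were picked after their values were seen, as those lower in replicate 3 of both groups. There the mean of the astrocyte markers was also lower (-0.39 in MG and -0.43 in PBS). The mean of the DNA replication genes was higher (0.50 in MG and 0.46 in PBS).

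The markers of the labelled cell type ranged widely in signal. All 13 stem cell and radial glia markers were above the reference level on all 6 arrays. Their mean log2 levels ran from 7.35 for Id1 to 13.17 for Fabp7, with Sox2 at 11.16 and Nes at 10.69. Other lists also held bright markers, such as the astrocyte marker Aldoc at 12.27, while Gjb6 of that list was at 4.34. Of the microglia and macrophage markers 4 of 12 exceeded the reference level in MG and in PBS, among them Cd68 at 7.29 and Cx3cr1 at 5.89. Aif1 and Ptprc were below it on every array. Pericyte and fibroblast markers were above it in 7 of 11, with Acta2 at 10.10, while Dcn and Lum were below it on every array. Endothelial markers were above it in 4 of 10, among them Flt1 at 7.14 and Kdr at 6.52, with Tek, Tie1 and Emcn below on every array. Of the 10 endothelial markers, 3 had higher and 7 lower means in MG, and the median log2 difference of the 4 above the reference level was 0.04. In 3 of the 10, Tie1, Esam and Slco1a4, MG was lower without overlap and with an unadjusted p under 0.05 in limma, against 3.31% and 3.21% of all genes, and none of the 3 exceeded the reference level in both group means. The 11 neuroblast and neuron markers above the reference level had means of 0.09, 0.14 and -0.09 in MG, and -0.05, -0.01 and -0.08 in PBS, relative to the 6 arrays.

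The ligands that act on these receptors passed no adjusted test either. Of 10 ErbB ligand genes, 6 exceeded the reference level in MG and in PBS, 4 had higher and 6 lower means in MG, and 0 passed the adjusted test. At an unadjusted p under 0.05 there was 1 of the 10, against 3.21% of all genes, namely Btc (betacellulin), which was below the reference level in MG and in PBS on average. The brightest were Hbegf, the heparin-binding EGF-like factor, and Tgfa, transforming growth factor alpha. Hbegf had log2 values of 9.35, 9.44 and 9.24 in MG, against 9.83, 9.59 and 9.33 in PBS, and Tgfa 7.82, 7.83 and 7.39 in MG, against 7.45, 7.56 and 7.42 in PBS. The groups overlapped for both, with log2 differences of -0.24 (SE 0.15) for Hbegf and 0.21 (SE 0.15) for Tgfa. Ereg, which encodes epiregulin, had the largest difference among those above the reference level, -0.28 (SE 0.15).

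Of 18 FGF genes, 8 exceeded the reference level in MG and in PBS, 12 had higher and 6 lower means in MG, and 0 passed after adjustment. An unadjusted p under 0.05 in limma was seen for 2 of the 18 (11.1%, against 3.21% of all genes), Fgf18 and Fgf10, of which Fgf10 was below the reference level on all 6 arrays. Fgf1 and Fgf17 were the brightest, with log2 differences of -0.23 (SE 0.17) and -0.10 (SE 0.14). Fgf18 had log2 values of 5.84, 5.73 and 5.62 in MG, against 5.55, 5.48 and 5.20 in PBS. Its groups did not overlap, and its log2 difference was 0.32 (SE 0.14), and limma gave a p of 0.0468 before and 0.9998 after adjustment. Fgf22 had a log2 difference of -0.24 (SE 0.18).

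Genes that help FGFs reach their receptors, and those that carry the signal inward, were spread about 0. Of 17 co-receptor and proteoglycan genes, 10 had higher and 7 lower means in MG, with a median log2 difference of 0.01, and 0 had an unadjusted p under 0.05. The brightest were the syndecan Sdc3, at 12.10 ± 0.11 in MG and 12.03 ± 0.05 in PBS, and the adhesion molecule Ncam1, at 11.93 ± 0.25 in MG and 11.73 ± 0.15 in PBS (SD, n = 3 each). The glypican Gpc4 had log2 values of 7.36, 7.51 and 7.61 in MG, against 7.26, 7.36 and 7.20 in PBS, without overlap but with an adjusted p of 0.9998 in limma. Of 18 adaptor and proximal signalling genes, 12 had higher and 6 lower means, and again 0 had an unadjusted p under 0.05. Among them Gab2, a docking protein, differed by 0.19 (SE 0.13) and Crk, an adaptor, by -0.15 (SE 0.12), while the brightest, Pik3r1 and Shc3, differed by -0.04 and 0.12.

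The genes that damp the receptors, and those that release or modify their ligands, also held 0 adjusted calls. Of 13 attenuator genes, 6 had higher and 7 lower means in MG, and none had an unadjusted p under 0.05 in limma. Lrig1, a transmembrane protein that promotes loss of ErbB receptors, had log2 values of 10.62, 10.63 and 10.49 in MG, against 10.64, 10.66 and 10.16 in PBS. Rnf41, a ubiquitin ligase for ERBB3, differed by 0.01, Socs5 by -0.24 and the ubiquitin ligase gene Cblb by 0.13. Of 16 genes of ligand shedding and heparan sulphate modification, 12 had higher and 4 lower means, and 0 had an unadjusted p under 0.05. Their brightest members, the sulphatase Sulf2 and the sheddase Adam10, differed by 0.00 and -0.09, and Rhbdf2 and Sulf1 by -0.15 and 0.14.

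For the 8 receptors above the reference level, thus without Erbb3, genes whose values ran most alike over the 6 arrays were found by Pearson correlation among the 13724 other genes that exceeded the reference level in MG and in PBS. With 6 arrays, of which the pair numbered 3 stand apart, many genes reach a high value, and no p is given. For Egfr the closest were Nkap, Nfkbia and Ccl28 (r from 0.977 to 0.981), and 18 genes reached an r of 0.95. For Erbb4 they were Phf14, Pcdhb2 and Pcdh9 (r = 0.996 each), and 196 genes reached 0.95, the most among the 8. For Fgfr3 they were Xkr4, Dusp18 and Palm (r from 0.991 to 0.996), with 84 genes at 0.95 or above. For Fgfr2 they were Pigm, Csrp1 and Notch1 (0.991 to 0.995), for Fgfr1 Myo1e, Usp51 and Frmpd1 (0.968 to 0.972), and for Fgfrl1 Rptor, Mn1 and Zmat3 (0.986 to 0.994). Those of Erbb2 were Ttc39c, Dync1h1 and Pgpep1 (0.986 to 0.997), and those of Fgfr4 were Qpct, Lgals8 and Cox6a2 (0.990 to 0.991).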

How the data were processed

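The authors deposited 1 value per probe set and array on a log2 scale, which was inferred from their range (0.73 to 13.81). Per the submitters' processing notes, Partek 6.6 was used. How background was corrected, how arrays were normalised and summarised, and the genome build are not stated in the sources used here. From 41345 probe sets, 23521 named 1 gene (1814 several, 16010 unnamed here), which gave 22180 genes, with the probe set of highest mean for the 1082 genes that had several. No gene was filtered out. MG was compared with PBS with limma 3.58.1 under R 4.3.3 (functions lmFit and eBayes, two-sided, without covariates, Benjamini-Hochberg over all genes), and single values by exact permutation (scipy 1.17.1). The limma p-values and intervals rest on the spread between 3 samples per group, which eBayes draws toward the spread over all genes. Without this moderation the SE was 0.08 instead of 0.12 for Egfr and 0.42 instead of 0.31 for Erbb4. The number of arrays limits the precision.

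The receptors, the gene lists and the alternatives were chosen with earlier results of these data known, also the reference level. The named genes were the receptors, the 2 brightest of each pathway list and its 2 with the largest difference above the reference level, and the 3 genes most like each receptor. Btc, Fgf10, Gfap, Ccnd1, Ccnd2, Id1, Aldoc, Gjb6 and the endothelial, microglial, pericyte and fibroblast genes were named after their values were seen. Some listed genes were not analysed here. In 10 simulated runs on 22180 genes, 19.2% of 1.5-fold and 88.4% of 2-fold changes between MG and PBS were recovered. The simulated noise was independent between genes, with the moderated spread of each gene and no difference between arrays. It thus left out the shared departure of the arrays numbered 3. These shares are averages over randomly picked genes and need not hold for the real arrays or for a receptor as variable as Erbb4. Promoter windows are RefSeq sequences of GRCm38.p6 (7 of 9 receptors matched).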

Additional observations from a re-analysis of the deposited data

How the results depend on the processing

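No alternative gave a gene past the adjusted threshold. Of 134 other values of the receptors, 124 kept their direction and 10 turned sign, and none passed. Part of the 124 was fixed in advance. Leaving out dim genes, averaging probe sets, the other moderation settings and the replicate block could not change a receptor's log2 difference. With 1 array left out, the log2 difference ran from -0.088 to 0.028 for Egfr, 0.02 to 0.23 for Erbb2, -0.43 to 0.079 for Erbb3 and -0.18 to 0.41 for Erbb4. For the FGF receptors it ran from 0.02 to 0.17 for Fgfr1, 0.07 to 0.36 for Fgfr2, 0.10 to 0.38 for Fgfr3, -0.21 to -0.05 for Fgfr4 and 0.03 to 0.22 for Fgfrl1. Without both arrays numbered 3 the sign turned for Erbb3 (0.16), Fgfr1 (-0.016) and Fgfrl1 (-0.032), and the cause was not tested. In that fit Erbb2 was at 0.00, Fgfr2 at 0.07 and Fgfr3 at 0.22. Erbb3 gives no value with dim genes left out, since it falls to that filter. The count of genes with an unadjusted p under 0.05 was 712, against 292 with dim genes left out (14291 genes tested), 1163 with array weights and 416 without PBS replicate 1. The replicate number as a block gave 0 adjusted calls and 1063 genes unadjusted, with the same log2 differences and a smaller SE for Erbb4 (0.12) and Fgfr3 (0.12), for which the unadjusted p in limma was 0.0585 and the adjusted p 0.9992. Same-numbered arrays deviated together with r of 0.22, 0.04 and 0.45 over the genes tested, so the numbers were not taken as pairs, and MG replicate 1 correlated best with PBS replicate 2 (0.26). Over genes above the reference level the 3 values were 0.33, 0.12 and 0.62. Signals near the reference level limit what can be read for Erbb3 and Fgfr4.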
